A study of Mus musculus with 4 samples.

Results

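The genes examined here code for the translation initiation factors of the mouse, the proteins that bring a ribosome, the initiator tRNA and an mRNA together at a start codon. They were taken from the deposited gene table by symbol: every symbol that begins with Eif followed by a digit from 1 to 6, with the 4 eIF2α kinases (Eif2ak1 to Eif2ak4) left out because they are regulators of a factor. Of the 22063 genes in the table, 73 symbols matched and 69 remained without the kinases. The filter on low counts was passed by 47 of these 69 and by 11448 genes in all. The RNA came from ID8, an established ovarian cancer line of the mouse. The cells carried either a control shRNA (shCtrl, genotype labelled WT) or an shRNA against the deubiquitinase USP9X (shUSP9X, labelled as a USP9X knockdown), and each group held 2 libraries. Neither the labels nor the paper's methods say which shRNA sequence these libraries carried or with what added factor the cells were grown. The methods describe low oxygen for hypoxia experiments, and do not say whether these libraries belong to them. It is also not said whether the libraries of a group came from separate cultures. The p-values therefore measure the spread between these libraries, which may be technical. The control libraries held 17232006 and 15611363 estimated counts and the knockdown libraries 19978889 and 17021261. Polyadenylated RNA was sequenced in bulk, so fewer cells expressing a gene and less RNA per cell cannot be told apart, and protein was not measured.

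Initiation begins with a ternary complex of eIF2, GTP and the initiator tRNA, which joins the small ribosomal subunit together with eIF1, eIF1A, eIF3 and eIF5. The cap-binding complex eIF4F brings in the mRNA and its helicase unwinds the leader while the subunit scans for a start codon. After start codon recognition eIF2 leaves as its GDP form and is recharged by the exchange factor eIF2B, and eIF5B joins the large subunit. Tumor cells depend on this machinery for growth, and the eIF4E-binding proteins and the eIF2α kinases are its best known brakes.

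The target of the shRNA was checked first. Usp9x (chrX:13071498-13173328, GRCm38, plus strand) had 5169 and 4453 counts in the shCtrl libraries against 390 and 346 in the shUSP9X libraries. On the CPM scale, which sets counts against the TMM-normalized library size, these were 298, 282, 19.7 and 20.5. The labels were borne out, with both knockdown libraries far below both controls. The log2 fold change of shUSP9X against shCtrl was -3.85 (SE 0.06, edgeR's quasi-likelihood test, Benjamini-Hochberg adjusted p = 4.66e-26), which is a 14.4-fold lower level, and -2.34 with the offset for GC content and length explained below. Of 10 markers of ovarian surface epithelium, the tissue from which ID8 was derived, 9 stood above 3 counts in every library. The exception was Krt7, with 0, 0, 2 and 3 counts. Krt19 was the most abundant of the 10, and the whole list summed to 46057 and 42483 counts in the controls and 61003 and 51045 after knockdown. The members did not move as one. Krt8 had 5441, 5119, 11905 and 10141 counts and Krt18 6776, 5882, 11868 and 9980, while Wt1 had 6210, 5892, 5070 and 4253 and Msln 8207, 7777, 6955 and 5834. The part of this difference in the changes of the factor genes was not tested.

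Most initiation factor mRNAs were higher in the shUSP9X libraries, while Eif5b, Eif2s2 and Eif3a fell more than 2-fold. At an adjusted p under 0.05, 30 of the 47 factor genes tested were higher and 13 were lower, and Eif1ax, Eif3c, Eif4e and Eif4enif1 were not called. In all genes tested, 33.8% were higher and 33.6% lower under the same rule, beside 63.8% and 27.7% of the factor genes. The median log2 fold change was 0.28 over the 47 genes and -0.00051 over all genes. Together the 69 genes took 1.54 and 1.53% of the estimated counts in shCtrl and 1.77 and 1.76% in shUSP9X. Past a fold of 1.5 at an unadjusted p under 0.05, the study's own cutoff, 10 of the 47 were higher, or 21.3% against a background of 10.8%. Another 5 were lower, or 10.6% against 18.7%. All 15 also had an adjusted p under 0.05. The falls belonged to Eif5b, Eif2s2, Eif3a, Eif5a2 and Eif4a2, and the rises to Eif3g, Eif2b4, Eif6, Eif2b1, Eif5a, Eif3d, Eif3b, Eif4a3, Eif4ebp2 and Eif3k. Each of the 47 kept its direction with any library left out.

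**Figure D1:**
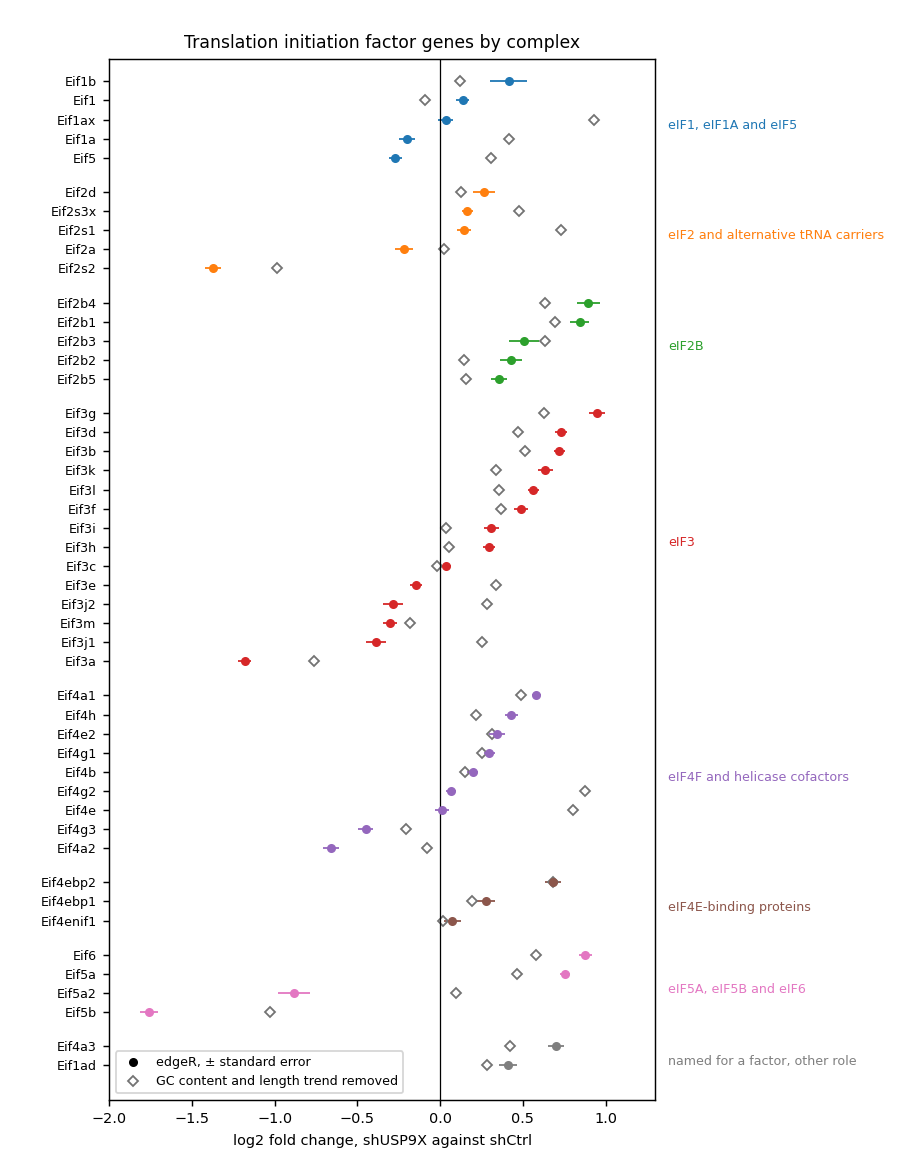
The log2 fold change of shUSP9X against shCtrl (x axis) of the 47 initiation factor genes tested, grouped and colored by complex. Filled points are edgeR estimates with their standard error and open diamonds the estimates after the trend on GC content and transcript length was removed; all 5 eIF2B genes lie to the right of 0, and Eif5b, Eif2s2 and Eif3a lie farthest to the left on both scales.

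One property of the sequences moved with these values. In these libraries the fold change of a gene followed its GC content and transcript length across all genes, so every count was also fitted with an offset that removes each library's trend on both. Such an offset takes out everything in a library that varies with these properties, whether it arose in the cells or at the bench. With it, 31 factor genes were higher (66.0%, against 36.1% of all genes tested) and 6 were lower (12.8%, against 27.4%), and 10 were not called. Their median was 0.28 with the offset, against 0.05 over all genes. Of the 47 genes, 9 changed sign under the offset, and 6 of these were called in opposite directions by the 2 fits. Many of the results below are therefore given with the offset as well, and the part of GC content and length in the fold changes was not tested beyond it.

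To show what the largest falls and rises look like at the level of the mRNA, the stretch of 30 codons with the most adenine was taken from the coding sequence of the 3 factor genes that fell more than 2-fold and of the 3 with the highest fold change. Sequences are from the GENCODE M21 transcripts (GRCm38), written 5′ to 3′ on the coding strand and in frame, with the lysine codons AAA and AAG in capitals.

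Eif5b, fell, codons 374 to 403 of 1216, exons 5 to 6 of 24: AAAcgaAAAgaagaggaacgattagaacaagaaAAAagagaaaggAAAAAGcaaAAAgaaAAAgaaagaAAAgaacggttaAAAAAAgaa

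Eif2s2, fell, codons 124 to 153 of 331, exons 4 to 5 of 9: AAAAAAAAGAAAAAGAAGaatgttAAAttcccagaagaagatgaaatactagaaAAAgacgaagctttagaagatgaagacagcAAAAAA

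Eif3a, fell, codons 799 to 828 of 1344, exons 16 to 17 of 22: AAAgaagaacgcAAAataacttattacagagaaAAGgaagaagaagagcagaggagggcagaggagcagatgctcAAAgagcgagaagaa

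Eif3g, rose, codons 57 to 86 of 320, exons 4 to 5 of 11: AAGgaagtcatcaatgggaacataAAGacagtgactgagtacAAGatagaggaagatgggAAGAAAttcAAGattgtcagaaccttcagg

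Eif2b4, rose, codons 30 to 59 of 524, exon 3 of 13: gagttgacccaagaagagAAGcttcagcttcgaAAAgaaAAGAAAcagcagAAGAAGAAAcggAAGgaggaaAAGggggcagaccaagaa

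Eif6, rose, codons 122 to 151 of 245, exons 3 to 4 of 6: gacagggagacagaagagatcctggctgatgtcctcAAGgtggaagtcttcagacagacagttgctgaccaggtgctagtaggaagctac

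The richest stretch of Eif5b was 67.8% adenine with 10 lysine codons, that of Eif2s2 58.9% with 10, and that of Eif3a 50% with 4. Among the 3 that rose, Eif2b4 reached 47.8% with 9 lysine codons, Eif3g 42.2% with 6 and Eif6 28.9% with 1. The stretches of the genes that fell were thus richer in adenine than those of the genes that rose. The gap between Eif3a and Eif2b4 was small, however, and Eif2b4 carried nearly as many lysine codons as Eif5b and Eif2s2. A longer coding sequence also offers more stretches from which to take the richest. Eif5b has 1216 codons and Eif3a 1344, against 245 to 524 in the others, and the part of this length was not tested. The stretches span chr1:38021797-38022238, chr2:154878539-154884374, chr19:60768882-60769944, chr9:20897749-20897959, chr5:31192187-31192276 and chr2:155823285-155823870, introns included.

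The 3 subunits of eIF2, which carries the initiator tRNA, did not move together. Eif2s2 codes for eIF2β, the subunit that eIF5 and eIF2B bind. It lies at chr2:154871410-154892935 on the minus strand and had 399 and 369.8 CPM in the shCtrl libraries against 141 and 157 in the shUSP9X libraries. Both knockdown libraries were under every control value, a 2.59-fold lower level (log2 fold change -1.37, SE 0.05, adjusted p = 4.83e-19 by edgeR), and the fall was -0.99 with the offset. Eif2s1 codes for eIF2α, the subunit that the stress kinases phosphorylate. Its levels were 199.9 and 188 CPM in shCtrl and 212 and 217 in shUSP9X, slightly higher with no overlap (log2 fold change 0.14, SE 0.04, edgeR adjusted p = 0.00493), a call that was lost without shUSP9X replicate 2 and on FPKM (adjusted p up to 0.0809). Eif2s3x, the X-linked gene of the GTP-binding subunit eIF2γ, was at 0.16 on the log2 scale (edgeR adjusted p = 0.000115). With the offset these 2 rises were 0.73 and 0.48. On the scale of the deposited FPKM (fragments per kilobase of transcript, scaled for library size), the ratio of Eif2s1 to Eif2s2 was 0.374 and 0.377 in the shCtrl libraries and 1.12 and 1.03 in the shUSP9X libraries. The ratio of Eif2s3x to Eif2s2 went from 1.01 and 1.07 to 3.17 and 2.89. The mRNA of eIF2β was thus over 2 times as abundant as that of eIF2α in the controls and about equal to it in the knockdown. Eif2s3y, the Y-linked copy of the γ subunit gene, had 0 counts in every library.

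Alternative carriers of the initiator tRNA had small values of opposite sign. Eif2d had 52.0 and 58.6 CPM in shCtrl and 65.4 and 67.8 in shUSP9X, and its log2 fold change was 0.27 (edgeR adjusted p = 0.000905). Eif2a, which codes for eIF2A, a protein apart from the eIF2 complex, was at -0.22 on that scale (edgeR adjusted p = 0.00128). Neither was called with the offset, where the values were 0.13 and 0.03.

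All 5 subunit genes of eIF2B, the exchange factor that reloads eIF2 with GTP, rose, beside 33.8% of all genes tested. Their CPM summed to 277.7 and 274.5 in shCtrl and 417.2 and 409.5 in shUSP9X, and their median log2 fold change was 0.51. The largest rise was that of Eif2b4 (eIF2Bδ, chr5:31187558-31193430, minus strand), from 33.8 and 34.8 CPM to 62.0 and 65.6. This is a 1.86-fold higher level (log2 fold change 0.90, SE 0.07, edgeR adjusted p = 1.55e-11). Eif2b1 (eIF2Bα, the subunit that senses phosphorylated eIF2α with eIF2Bβ and eIF2Bδ) followed, with 63.0 and 68.0 CPM against 119.7 and 115. Eif2b1 thus had a log2 fold change of 0.84 (SE 0.06, edgeR adjusted p = 4.4e-13). With the offset Eif2b4 was at 0.63 and Eif2b1 at 0.69. The values were 0.51 for Eif2b3 (eIF2Bγ) and 0.43 for Eif2b2 (eIF2Bβ). The smallest rise was that of Eif2b5, the catalytic ε subunit, from 109.6 and 104 to 139 and 134 CPM (log2 fold change 0.36, edgeR adjusted p = 5.04e-07). With the offset 4 of the 5 were still called higher, beside 36.1% of all genes tested, with a median of 0.63. The exception was Eif2b2 at 0.14 (edgeR adjusted p = 0.0593).

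Among the factors that guide scanning and start codon choice, the values were small and mixed. Eif5 codes for the protein that makes eIF2 hydrolyze its GTP, and it had 297 and 286 CPM in shCtrl against 243 and 239.8 in shUSP9X. That was the lowest fold change of the group (log2 -0.27, SE 0.04, edgeR adjusted p = 9.21e-07), but it turned to 0.31 with the offset. Eif1b, a close copy of the start codon gatekeeper Eif1, had the highest, from 15.7 and 18.1 to 23.6 and 21.3 CPM (log2 0.41, edgeR adjusted p = 0.00186, and 0.12 with the offset, not called). Eif1 itself was at 0.14, not called without shUSP9X replicate 2, and at -0.09 with the offset. The protein eIF1A, which holds the initiator tRNA in place with eIF1, has 2 genes. Eif1a was at -0.20 and Eif1ax was not called at 0.03 (95% interval -0.06 to 0.12), while with the offset both were higher, at 0.42 and 0.93.

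eIF3 is the largest factor, a scaffold on the small subunit that links it to the mRNA-bound eIF4F. Of its 14 genes, 8 rose, 5 fell and Eif3c was not called, with a median log2 fold change of 0.30. Among all genes tested, 33.8% were higher and 33.6% lower. Eif3a, the subunit on which much of the complex assembles, fell the most. It lies at chr19:60761117-60790658 on the minus strand and had 940.2 and 857 CPM in the controls against 386 and 406 in the knockdown, a 2.27-fold lower level. Its log2 fold change was -1.18 (SE 0.04, edgeR adjusted p = 2.95e-19), and -0.76 with the offset. The largest rise belonged to Eif3g, an RNA-binding subunit that sits with eIF3b and eIF3i at the mRNA channel. Eif3g (chr9:20894349-20898623, minus strand) went from 100.4 and 103 to 192 and 200.3 CPM, a 1.93-fold higher level. For Eif3g the log2 fold change was 0.95 (SE 0.05, edgeR adjusted p = 1.19e-15) and 0.63 with the offset.

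Eif3d, whose protein can itself bind the cap of some mRNAs, rose from 342 and 331 to 563 and 551 CPM (log2 fold change 0.73, edgeR adjusted p = 9.99e-16). Eif3b, the scaffold of the eIF3b-g-i module, rose from 504 and 518 to 850.5 and 832 CPM (log2 fold change 0.72, edgeR adjusted p = 2.89e-16). Eif3k, a peripheral subunit, rose from 125 and 125 to 195 and 192 CPM (log2 fold change 0.64, edgeR adjusted p = 1.7e-12). In each of these 3 genes both knockdown libraries were above both controls, and the rises were 0.47, 0.52 and 0.34 with the offset. The smaller rises were 0.56 for Eif3l, 0.49 for Eif3f, 0.31 for Eif3i and 0.29 for Eif3h. The remaining falls were -0.39 for Eif3j1, -0.30 for Eif3m, -0.29 for Eif3j2 and -0.15 for Eif3e, the last not called without shUSP9X replicate 2. Eif3j1 and Eif3j2 code for the loosely bound subunit that helps ribosomal subunits part, and their counts hold reads shared between genes. With the offset 9 of the 14 were higher, 2 were lower (Eif3a and Eif3m) and 3 were not called (Eif3c, Eif3h and Eif3i). Among all genes tested, 36.1% were higher and 27.4% lower with the offset. Eif3e, Eif3j1 and Eif3j2 turned to rises of 0.34, 0.25 and 0.28.

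The eIF3 genes code for subunits of 1 complex, and their mRNA levels per length can be set side by side. In the shCtrl libraries Eif3a stood at 185 and 169 FPKM and Eif3b at 172 and 178 FPKM. In the shUSP9X libraries they stood at 74.6 and 78.5 and at 286 and 279 FPKM. The ratio of Eif3b to Eif3a thus went from 0.933 and 1.05 to 3.83 and 3.56. Eif3c, whose product pairs with eIF3a in the core, stayed between 202 and 207 FPKM in all 4 libraries (log2 fold change 0.04, 95% interval -0.03 to 0.10). Apart from Eif3j1 and Eif3j2, Eif3a was the lowest eIF3 gene on the FPKM scale in both knockdown libraries, whereas in the controls it lay in the midst of them.

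**Figure D2:**
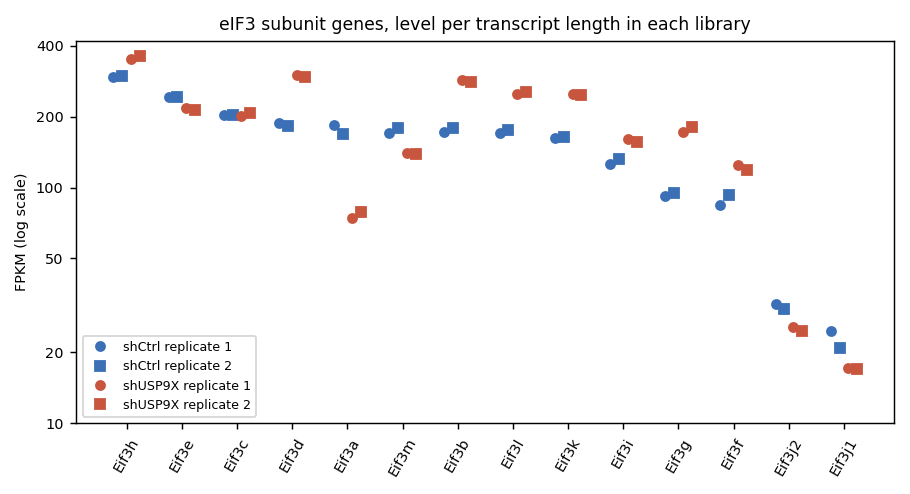
The level of each of the 14 eIF3 genes in FPKM (y axis, log scale) in each library, ordered along the x axis by the level in shCtrl; circles are replicate 1, squares replicate 2, blue shCtrl and red shUSP9X. Eif3a drops from 185 and 169 FPKM to 74.6 and 78.5, while Eif3b, Eif3d and Eif3g move up.

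In eIF4F the gene of the cap-binding subunit was not called in the main comparison but was called higher with the offset. The helicase gene Eif4a1 and the scaffold gene Eif4g1 rose and their paralogs Eif4a2 and Eif4g3 fell, the fall of Eif4a2 not being called with the offset. Eif4e, the cap-binding protein, had 196 and 199 CPM in shCtrl and 197 and 201 in shUSP9X, so the groups overlapped. Its log2 fold change was 0.01 (SE 0.04, 95% interval -0.08 to 0.10, edgeR adjusted p = 0.849). With the offset Eif4e was called higher, at 0.80 (edgeR adjusted p = 1.26e-17). The helicase gene Eif4a1 (chr11:69666936-69672423, minus strand) rose from 1498 and 1459.7 to 2229.8 and 2197 CPM, just under the 1.5-fold cutoff. This is a log2 fold change of 0.58 (SE 0.03, edgeR adjusted p = 1.32e-15) and 0.49 with the offset. The paralog Eif4a2 fell from 172 and 165 to 109 and 104 CPM (log2 fold change -0.66, SE 0.05, edgeR adjusted p = 3.15e-12). That fall was -0.08 and not called with the offset (edgeR adjusted p = 0.123). The ratio of Eif4a1 to Eif4a2 on the FPKM scale was 11.9 and 11.6 in the controls and 25.1 and 26.0 in the knockdown. Of the scaffolds, Eif4g1 was at 0.30 and Eif4g3 at -0.45, and their FPKM ratio went from 7.65 and 7.20 to 12.3 and 12.2. With the offset they were at 0.25 and -0.21. Eif4g2 codes for a related scaffold that cannot bind eIF4E, and its log2 fold change of 0.07 lay at the edge of the threshold (edgeR adjusted p = 0.049998) and was lost with either shUSP9X library left out. With the offset it was 0.87. The helicase cofactor genes Eif4b and Eif4h rose by 0.20 and 0.43 on the log2 scale, and Eif4e2, a cap-binding protein that represses translation, by 0.35. Of the other 2 genes of the eIF4E family, Eif4e1b had no counts and Eif4e3 had 0, 1, 1 and 1.

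The eIF4E-binding proteins hold eIF4E away from eIF4G until mTORC1 phosphorylates them. Eif4ebp2 had 99.9 and 107 CPM in shCtrl and 164 and 167 in shUSP9X, with both knockdown libraries higher. The log2 fold change was 0.68 (SE 0.05, edgeR adjusted p = 2.4e-12) and also 0.68 with the offset. Eif4ebp1 rose less, from 79.8 and 79.2 to 95.6 and 97.3 CPM (log2 fold change 0.28, SE 0.05, edgeR adjusted p = 4.98e-05, and 0.19 with the offset). Their FPKM ratio, Eif4ebp1 to Eif4ebp2, went from 2.31 and 2.15 to 1.52 and 1.58. Eif4enif1, which carries eIF4E into the nucleus and into processing bodies, had 101 and 104 CPM against 105 and 111. It was not called (log2 fold change 0.07, 95% interval -0.03 to 0.18). Eif4ebp3 had no counts.

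The factors that act at subunit joining and afterwards held the largest fall of all and 2 of the 10 rises past 1.5-fold. Eif5b codes for the GTPase that joins the large subunit to the small one at the start codon. The gene (chr1:37998010-38055579, plus strand) had 236 and 225 CPM in shCtrl and 64.5 and 72.02 in shUSP9X, a 3.39-fold lower level. Its log2 fold change was -1.76 (SE 0.05, edgeR adjusted p = 2.43e-20), the lowest of the 47, and remained the lowest at -1.03 with the offset. Eif6, whose product keeps free large subunits from joining, moved the other way. The gene (chr2:155819832-155826925, minus strand) had 179 and 185 CPM in the controls and 334 and 334 in the knockdown, a 1.84-fold higher level. The log2 fold change of Eif6 was 0.88 (SE 0.04, edgeR adjusted p = 1.7e-16), and 0.58 with the offset. In both genes the replicates lay close together and the groups far apart.

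Eif5a (chr11:69916714-69921958, minus strand) codes for the hypusine-bearing factor that helps stalled ribosomes form peptide bonds. It had 1071 and 1135 CPM in shCtrl and 1867 and 1853 in shUSP9X, a 1.69-fold higher level (log2 fold change 0.75, SE 0.03, edgeR adjusted p = 3.01e-17, and 0.46 with the offset). The much weaker paralog Eif5a2 fell from 35.5 and 34.5 to 19.9 and 17.9 CPM (log2 fold change -0.88, SE 0.10, edgeR adjusted p = 7e-09). With the offset Eif5a2 was at 0.09 and not called (edgeR adjusted p = 0.396). On the FPKM scale Eif5a exceeded Eif5a2 by 133 and 146 times in the controls and by 403 and 450.2 times in the knockdown. Eif4a3, named for its likeness to eIF4A but a core protein of the exon junction complex, rose from 116 and 124 to 194 and 195 CPM (log2 fold change 0.70, edgeR adjusted p = 6.3e-13, and 0.42 with the offset). Eif1ad, named for a domain like that of eIF1A, had 74.9 and 74.9 CPM against 102 and 96.4 (log2 fold change 0.41, edgeR adjusted p = 2.96e-07, and 0.28 with the offset).

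**Figure D3:**
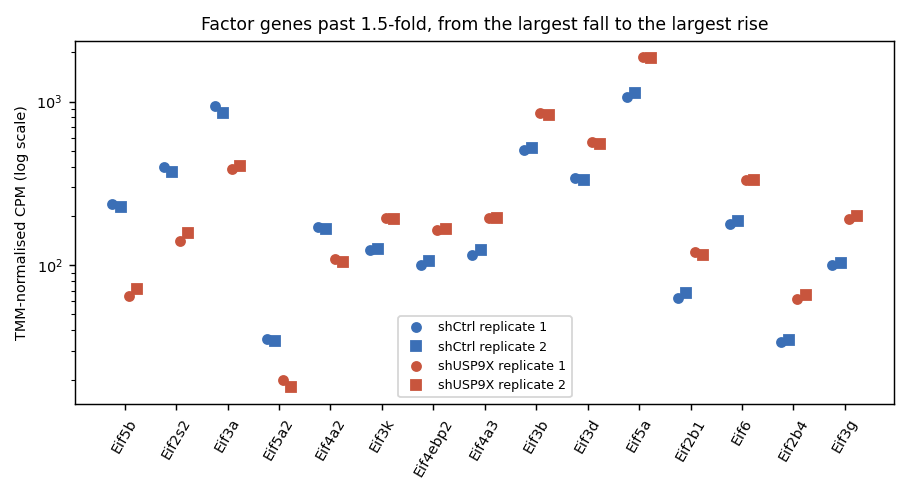
TMM-normalized CPM (y axis, log scale) in each library for the 15 initiation factor genes past a fold of 1.5, ordered along the x axis from the largest fall to the largest rise; circles are replicate 1, squares replicate 2, blue shCtrl and red shUSP9X. The 5 genes on the left are lower and the 10 on the right higher in shUSP9X. They were picked by p and fold in these same libraries, so the gap between the groups follows largely from that choice.

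The fold changes of the factor genes went with their base composition. Spearman's rho between the log2 fold change and the adenine content of the coding sequence was -0.790 across the 47 genes and -0.349 across 11416 genes tested. With GC content of the transcript it was 0.776 across the 47 and 0.447 across 11430 genes. These are descriptions across genes, which share the same 4 libraries and whose adenine and GC contents are tied to each other. With the offset, rho with adenine was -0.208 across the 47 and -0.0664 across all. The median coding adenine content was 28.5% over the factor genes and 25.6% over all genes tested, and the factor genes ranged from 21.4% in Eif6 to 38.1% in Eif2s2. All genes tested were sorted into 10 bins of equal size by coding adenine. In the bin with the most (31.8 to 46.8%), the median log2 fold change was -0.83 and 77.6% were lower. That bin held 10 factor genes, of which 8 were lower, Eif2s1 was higher and Eif1ax was not called. Eif5b, Eif2s2 and Eif3a fell below the median of this bin, while the other 7 lay above it, and the median of the 10 was -0.28. The bins from 19.8 to 26.8% held 17 factor genes, and all 17 were higher, where 38.9 to 45.4% of all genes in these bins were higher. With the offset the median of the bin with the most adenine was -0.36. Of its 8 lower factor genes, Eif5b, Eif2s2 and Eif3a were still lower, Eif1a, Eif5, Eif3j1 and Eif3j2 were called higher, and Eif2a was not called. Of the 17, Eif2b2, Eif2d and Eif3i were then not called and 14 were still higher. Among the 14 eIF3 genes alone, rho was -0.763 with coding adenine and 0.886 with GC content, and with the offset -0.464 and 0.569. Lysine codons made up 14.3% of the coding sequence of Eif5b and 14.2% of those of Eif2s2 and Eif3j1, the highest shares among the 46 factor genes with a readable frame, and 2.04% of that of Eif6, the lowest. The share of Eif3a, 6.47%, lay below their median of 7.05%.

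**Figure D4:**
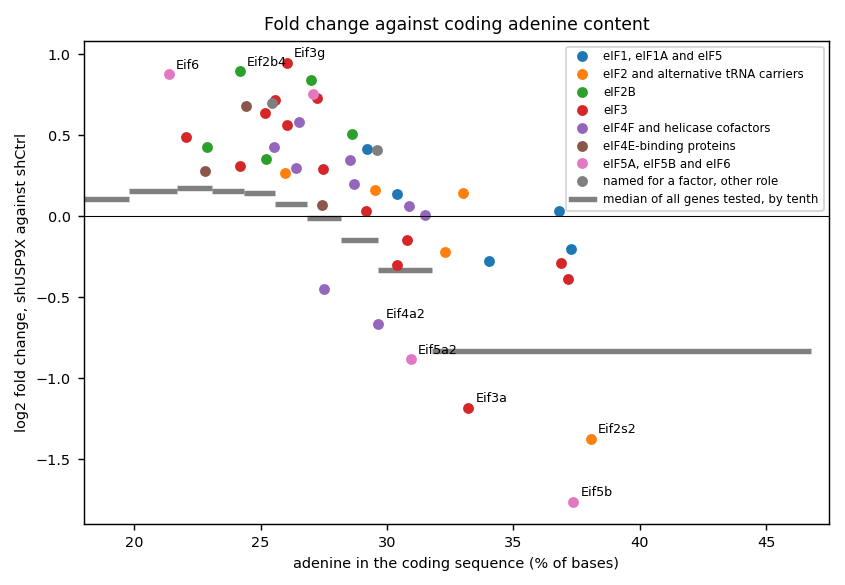
The log2 fold change of shUSP9X against shCtrl (y axis) of each of the 47 initiation factor genes against the adenine content of its coding sequence in percent (x axis), colored by complex. Gray bars give the median of all genes tested in each of 10 bins of adenine content; they fall to -0.83 in the last bin, and Eif5b, Eif2s2 and Eif3a lie below that bar.

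The promoters of the factor genes were searched for the E-box CACGTG, the element bound by MYC and related factors, which reads the same on both strands. RefSeq (GRCm38.p6) gave a window from 250 bases before to 50 after the start for 38 of the 47 genes. The E-box was in the window of 10 of the 38, or 26.3%, in 11.9% of 9098 genes that were tested here and matched by symbol, and in 8.09% of all 27025 genes with a window, expressed or not. The median GC content of the windows was 62.7% for the factor genes, 61% for the genes tested and 52.7% for all. The 10 genes were Eif1b, Eif3a, Eif3f, Eif3k, Eif4a1, Eif4e, Eif4g1, Eif4h, Eif5a and Eif5a2. Their median log2 fold change was 0.42, beside 0.18 for the 28 without the letters. They included Eif3a and Eif5a2, which fell, and Eif5a and Eif3k, which rose. A match of these letters is no evidence of binding.

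Regulators and partners of the factors, and the later steps of translation, were read from a list of 62 genes, of which 59 were tested. Of these, 25 were higher (42.4%), 23 lower (39.0%) and 11 not called under the rule that called 33.8% of all genes higher and 33.6% lower, with a median log2 fold change of -0.0098. The eIF2α kinases shut initiation down under stress. Eif2ak3 (PERK, the kinase of the endoplasmic reticulum) had 46.0 and 44.0 CPM in the controls and 31.7 and 28.8 after knockdown (log2 fold change -0.57, SE 0.08, edgeR adjusted p = 7.1e-07, and -0.61 with the offset). Eif2ak2 (PKR, which senses double-stranded RNA) fell from 72.8 and 68.9 to 48.5 and 47.4 CPM (log2 fold change -0.56, edgeR adjusted p = 1.58e-08, and -0.16 with the offset). Both kinases were lower in each knockdown library than in either control. Eif2ak4 (GCN2, which senses uncharged tRNA) had 38.5 and 40.3 CPM against 33.6 and 35.8, and its adjusted p of 0.0436 by edgeR ranged from 0.0211 to 0.29 under the other settings. Eif2ak1 (HRI, which responds to heme shortage) overlapped between the groups, with 77.6 and 88.5 against 87.2 and 89.7 CPM. For Eif2ak1 the log2 fold change was 0.09 (95% interval -0.03 to 0.21). It was called higher without shCtrl replicate 2, at 0.19, and with the replicate block and the offset together, at 0.12, and its edgeR, DESeq2 and limma adjusted p ranged from 0.0053 to 0.938 over the other settings. Ppp1r15a, the stress-induced subunit that takes the phosphate off eIF2α, was at -0.58, and 4 of the 5 phosphatase genes were lower. With the offset 2 of the 5 were lower, Ppp1r15a at -0.79 among them, beside 27.4% of all genes tested. The catalytic subunit gene Ppp1cb turned from -0.53 to 0.34 and was called higher, beside 36.1% of all genes, and 2 were not called.

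In the mTORC1 pathway, which frees eIF4E and activates ribosomal S6 kinase, 5 of 11 genes were higher and 2 were lower, beside 33.8% and 33.6% of all genes tested. With the offset 7 of the 11 were higher and 1 was lower, beside 36.1% and 27.4%. Mlst8, a shared subunit of both mTOR complexes, rose from 16.3 and 17.7 to 34.0 and 31.8 CPM (log2 fold change 0.95, edgeR adjusted p = 3.24e-09, and 0.81 with the offset). Akt1s1 (PRAS40, an inhibitor of mTORC1 that AKT relieves) rose from 56.3 and 60.6 to 95.2 and 101 CPM (log2 fold change 0.74, and 0.50 with the offset). The gene of the kinase itself, Mtor, was not called at -0.06 (95% interval -0.18 to 0.06), but was called higher with the offset, at 0.26 (edgeR adjusted p = 0.000147). Rps6kb1, the S6 kinase that phosphorylates eIF4B, fell from 100.4 and 96.1 to 46.1 and 48.7 CPM (log2 fold change -1.05, edgeR adjusted p = 2e-14), but was at -0.07 and not called with the offset. Deptor, an inhibitor of mTOR, fell from 81.9 and 83.5 to 38.7 and 41.1 CPM (log2 fold change -1.05, and -0.19 with the offset).

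Among proteins that bind eIF4A, eIF4E or the mRNA, Pdcd4, a tumor suppressor that blocks the eIF4A helicase, had 5.94 and 7.78 CPM in shCtrl and 2.38 and 2.43 in shUSP9X. It had the largest fall of the list (log2 fold change -1.51, SE 0.23, edgeR adjusted p = 2.67e-06, and -1.22 with the offset). Larp4, which binds poly(A) tails, fell from 262 and 256 to 139.5 and 147 CPM (log2 fold change -0.86), but the value turned to 0.27 with the offset. The helicase gene Dhx36, which unwinds G-quadruplexes, fell from 120.1 and 114 to 49.6 and 52.7 CPM (log2 fold change -1.20, and -0.28 with the offset). Abce1, the ATPase that recycles ribosomes after termination, fell from 308 and 294 to 179 and 176 CPM (log2 fold change -0.76), but was at -0.08 and not called with the offset. Mcts1, a reinitiation factor, was at -0.62, with 14.7, 15.7, 9.51 and 10.3 CPM. With the offset it was not called, at -0.16 (edgeR adjusted p = 0.297). Mtif2, which brings the initiator tRNA to the ribosome of mitochondria, fell from 36.0 and 33.5 to 20.1 and 21.8 CPM (log2 fold change -0.73, and -0.52 with the offset). Abcf3, an ABC protein of the same family as the GCN2 partner Gcn20 of yeast, rose from 41.1 and 39.6 to 62.2 and 59.6 CPM (log2 fold change 0.59, and 0.44 with the offset).

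All 6 genes tested in the elongation group were higher, beside 33.8% of all genes tested, with a median log2 fold change of 0.42. The group includes Eef2k, which codes for a kinase of eEF2 and not for an elongation factor, at 0.21. The largest rise was that of Eef1d, a subunit of the exchange factor of eEF1A, from 324 and 324 to 509.6 and 498 CPM (log2 fold change 0.64, edgeR adjusted p = 1.59e-14, and 0.42 with the offset). With the offset all 6 genes of the group, Eef2k among them, were still higher, beside 36.1% of all genes tested. Both enzymes that make hypusine on eIF5A, Dhps and Dohh, were higher too, at 0.36 and 0.54, and Dohh was also called with the offset. In all, 8 genes of the list were lower past a fold of 1.5 (13.6%, against 18.7% of all genes) and 4 higher (6.78%, against 10.8%). With the offset 12 of the 59 were lower (20.3%, against 27.4%) and 32 higher (54.2%, against 36.1%).

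**Figure D5:**
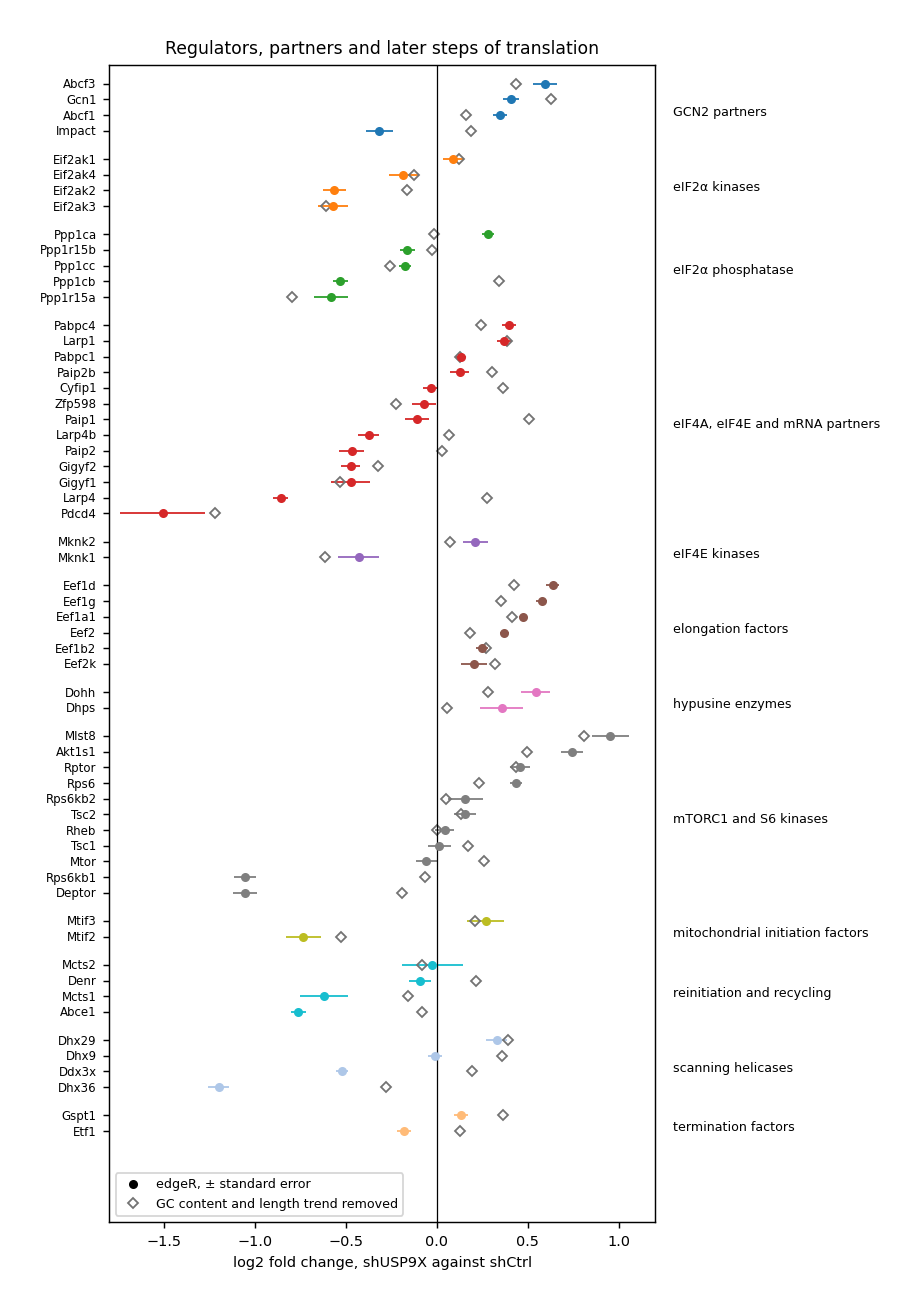
The log2 fold change of shUSP9X against shCtrl (x axis) of the 59 other genes of translation tested, grouped by role. Filled points are edgeR estimates with their standard error and open diamonds the estimates with the trend on GC content and length removed. All 6 genes of the elongation group, Eef2k among them, lie to the right of 0, and Pdcd4 lies farthest to the left.

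The 22 factor genes that were not tested lay under the filter. Beside Eif2s3y, Eif4e1b, Eif4ebp3 and Eif4e3, given above, they were Eif4a3l1 with 0, 0, 2 and 1 counts, Eif4a3l2 with 0, 0, 2 and 0, and 16 genes with symbols from Eif1ad2 to Eif1ad19. These lie together on chr12 between 87494721 and 88324026, and 9 of them have a single exon. They share the stem of their symbol with Eif1ad, but their coding sequences are 432 nt long with 37.7 to 39.8% GC, as against 510 nt and 51.6% in Eif1ad and 432 nt and 40.5% in Eif1a. Added up, they gave 76 and 54 counts in the control libraries but 3 and 10 in the knockdown libraries. Above 0 were 14 and 12 of them in shCtrl and 3 and 5 in shUSP9X, and none exceeded 10 counts in any library. Since 7 of the genes had counts that were not whole, the authors' counting divided reads between genes here, and the summed count says more than that of any 1 gene. Without the filter, 15 of the 16 could be fitted, and all 15 had a log2 fold change below 0. With so few counts and with reads divided between genes, these are not 15 separate observations.

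Of the 47 genes tested, 9 had counts that were not whole numbers in some library, which are reads that the authors' counting divided between genes. These were Eif1, Eif1b, Eif5, Eif2b4, Eif3j1, Eif3j2, Eif4a2, Eif5b and Eif1ad, and their values carry that uncertainty. Markers of other cells were read as well. Of 10 leukocyte markers, none stood above 3 counts in both shCtrl libraries and 5 did so in both shUSP9X libraries (Itgam, Adgre1, Ccr3, Ptprc and Csf1r). Their sum was 1 and 0 counts in the controls but 211 and 190 after knockdown, or 0.00106 and 0.00112% of the latter libraries' counts. The most abundant was Itgam, with 0, 0, 72 and 75 counts, while Cd3e and C1qa were at 0 in every library. Fibroblast markers (3 of 5 above the floor, led by Dcn, with Lum and Thy1 at 0) summed to 4365 and 4094 counts in the controls, against 2920 and 2433 after knockdown. Endothelial markers (2 of 5, led by Tek) summed to 181, 184, 128 and 118, and none of 3 erythroid markers passed 3 counts in both libraries of a group. The part of such cells in the changes of the factor genes was not tested.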

How the data were processed

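RNA of 4 ID8 libraries was analyzed. According to the paper's methods the reads were mapped to GRCm38, and the submitters' processing notes name fastp 0.18.0, Bowtie2 2.2.8, HISAT2, StringTie 1.3.1 and RSEM. Strand use in counting is not given in the sources used here, so reads of overlapping genes cannot be told apart. For every gene the authors deposited the estimated counts of each library, without normalization, together with FPKM values, which are scaled for library size and length. Counts were rounded to whole numbers, filtered with filterByExpr, scaled by TMM and tested with edgeR 4.0.16 (R 4.3.3, quasi-likelihood test, no replicate block) over 11448 genes. The standard error was the log2 fold change divided by the root of the F statistic. Between 6.40 and 6.69% of values were not whole. Replicates differed by more than sampling noise (chi-square per gene 3.39 in shCtrl and 2.09 in shUSP9X). With 2 libraries against 2, an exact two-sided permutation test cannot go below p = 0.333. A floor of 3 counts and all intervals cover counting and replicate error of these libraries only, and molecular identifiers are not described.

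GC content, length, coding sequence and coordinates came from GENCODE M21, with a value for 99.8% of the genes tested. The offset takes out each library's trend on GC content and length by loess with a span of 0.3. Other alternatives were DESeq2 1.42.0, 3 other scalings, 2 other filters, limma-trend (limma 3.58.1) on the log2 of FPKM with a pseudocount of 1 or 0.1, restricted to a mean of 1 or more, a replicate block, and each library left out. The members, the complexes, the list of other genes of the pathway and the markers were chosen with earlier results of these data known. Values in every library are given for Usp9x, the members past 1.5-fold at an adjusted p under 0.05, the highest and lowest of each complex, Eif2s1, Eif4e, Eif4ebp1 and Eif5a, the eIF2α kinases and pathway genes past 1.5-fold. Ppp1r15a, Ppp1cb, Ddx3x, Impact, Etf1, Mtor, Dhps and Dohh were named after their values were seen. A marker of the leukocyte list is not reported here by name.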

Additional observations from a re-analysis of the deposited data

How the results depend on the processing

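The 2 libraries of each group limit what these tests show, and some large changes depended on the settings as well as small ones. With the offset the log2 fold change of Eif4a2 went from -0.66 to -0.08, that of Rps6kb1 from -1.05 to -0.07, that of Abce1 from -0.76 to -0.08 and that of Mcts1 from -0.62 to -0.16, and none of these was then called. Under other scalings the all-gene median shifted by 0.0328 or less (log2). With the GC content and length offset, alone or with the replicate block, 6 factor genes and 12 pathway genes were lower. These were 12.8 and 20.3% of those tested, beside 27.4% of all genes with the offset alone. Lower past 1.5-fold were 3 factor genes, and the share of all genes past that fold was not taken with the offset. In the same 2 fits these log2 fold changes reversed: Eif1 -0.0936 (-0.0934 with the block), Eif1a 0.42, Eif5 0.31, Eif2a 0.026, Eif3e 0.34, Eif3j1 0.25 (0.26 with the block), Eif3j2 0.28, Eif5a2 0.094 (0.092 with the block) and Larp4 0.27. Of the other pathway genes, Ppp1cb (0.34), Ddx3x (0.19), Impact (0.19) and Etf1 (0.13) were lower in the main comparison and called higher with the offset. Of the factor genes not called in the main comparison, Eif1ax (0.93) and Eif4e (0.80) were called higher with the offset, alone or with the replicate block. The offset takes out whatever follows GC content and length, and the cause of the trend was not tested. Without a filter beyond 1 count, 11 factor genes were lower past 1.5-fold and the median fell to 0.084, since 15 genes of the cluster Eif1ad2 to Eif1ad19 on chr12 then entered. Leaving out each library in turn gave 27 to 30 factor genes higher and 13 lower, 10 to 11 higher and 5 to 6 lower past 1.5-fold, a median of 0.25 to 0.30, and 21 to 24 pathway genes higher and 21 to 23 lower, with the lone library of a group assumed to vary like the other group. Eif4g2 lost its call in several settings, Eif1 and Eif2s1 on FPKM and without shUSP9X replicate 2, and Eif3e without that library. The 13 lower without shUSP9X replicate 2 were thus 12 of the 47 genes and Eif1ad15, which passed the filter there. The deviations of same-numbered libraries correlated at -0.0453 across genes, so no strong shared deviation was seen. This value cannot show whether same-numbered libraries shared a culture or a day, and the labels do not say. With the replicate block 13 factor genes were lower and 29 higher, the call lost being that of Eif4g2, whose log2 fold change was 0.07. Shares of all genes called were not taken for the fits with a replicate block or with a library left out.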
